A study of Arabidopsis thaliana with 18 samples.

Results

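GH3.1, GH3.3 and GH3.9 are genes of the GH3 family, whose enzymes join small acidic hormones to amino acids. These 3 genes were chosen with earlier results of these data known, each by a probe set assigned to that gene alone in the platform's probe table. WES1 (GH3.5) and GH3.17 also had such a probe set but were not among the 3, and they are given further below. The rule found 1 probe set for each of the 3 genes, 3 of 22746 probe sets besides the controls. They are 266611_at for GH3.1 (locus AT2G14960), 245076_at for GH3.3 (AT2G23170) and 266465_at for GH3.9 (AT2G47750), and by their locus tags all 3 genes lie on chromosome 2. No genome build is named for the array values, so no coordinates are given, and no GH3 sequence was in the sources used here.

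The study measured transcripts of dark-grown Arabidopsis thaliana seedlings on 18 Affymetrix arrays, 3 for each of 6 groups. Wild type of the Columbia ecotype was compared with pif4pif5, a double mutant in the same background that lacks the transcription factors PIF4 and PIF5. All groups shared 3 days of cold, a 3 h pulse of red light (50 µmol/m2/s) and 3 days of darkness. One group per genotype stayed dark, one received far-red light for 1 h (0.5 µmol/m2/s) and one for 24 h (5 µmol/m2/s). The light periods thus differed in fluence rate too, and seedlings at 24 h were older than the dark ones, so light, fluence rate and age cannot be told apart at 24 h. The labels do not say that replicates A, B and C were separate cultures, so p values measure spread among these arrays alone, and that spread may be technical. Whole seedlings were used. Fewer cells of a type and less RNA per cell cannot be told apart in such samples.

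Indole-3-acetic acid is the main auxin of plants, and GH3 enzymes of the auxin-conjugating group lower its free pool by linking it to amino acids such as aspartate or glutamate. Several of these genes are themselves induced by auxin, which makes them part of a negative feedback loop. PIF4 and PIF5 promote elongation growth of seedlings, partly through auxin, and active phytochrome triggers the breakdown of PIF proteins. GH3.1 and GH3.3 belong to the auxin-inducible conjugating enzymes, and GH3.3 is also known from adventitious rooting. GH3.9 is a more distant family member known for an effect on primary root growth. PIF4 and PIF5 had no assigned probe set, so the genotype labels were not checked on them.

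Values below are log2 signals as deposited, and a difference is the first-named group minus the second on that scale, with the standard error (SE) of the fit. A probe set was called when its limma p, adjusted by Benjamini-Hochberg over all 22746 probe sets of a comparison, was under 0.05. The array of wild-type dark replicate C stood apart, with a median of 6.16 over all probe sets against 5.6 to 5.88 on the other 17 arrays. The 27 bacterial control probe sets had a mean of 3.67 there and of 3.37 on replicate B of the same group, while the remaining 16 arrays lay from 3.09 to 3.29. For all 3 GH3 genes, replicate C held the highest value of the wild-type dark group. Among markers of the seedling, the photosystem genes PSAN, PSAE-1 and PSBY and the Rubisco activase gene RCA were above every bacterial control on all 18 arrays. The shoot meristem gene CLV3 and the 2 measured root hair genes, EXPA7 and EXPA18, were above the highest control on 0 arrays.

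After 24 h of far-red light, GH3.9 was higher and GH3.3 was lower in pif4pif5 than in the dark mutant, while GH3.1 was not called. GH3.9 rose by 1.29 (SE 0.20, 2.45-fold, adjusted p = 0.000249, limma) and GH3.3 fell by 0.82 (SE 0.20, 1.76-fold, adjusted p = 0.0106, limma). In wild type neither was called over the same interval, GH3.9 being at 0.08 (SE 0.20) and GH3.3 at -0.38 (SE 0.20). GH3.9 lay near the mean of the bacterial controls in both of these wild-type groups and in the dark mutant, so the sizes of its changes are uncertain. At 24 h GH3.9 was also 2.05-fold higher in the mutant than in wild type (adjusted p = 0.0282, limma), a call lost in 6 of 16 alternatives and made against a wild-type signal near the control mean. The interaction of genotype with 24 h of far-red light was called for none of the 3 genes (adjusted p from 0.812 to 0.981, limma). The 4 shoot markers above every control rose by 1.13 to 1.72 in the mutant over the same interval (adjusted p from 9.09e-08 to 9.93e-05, limma). Their group means went up in wild type too. PSAN went from 9.68 to 11.96 there, PSAE-1 from 9.77 to 11.66, PSBY from 9.74 to 11.62 and RCA from 10.99 to 12.55. In the mutant CLV3, EXPA7 and EXPA18 were at 0.13, -0.01 and 0.23, none of them called. These were above the highest control on 0 arrays, so their lack of a call is uninformative. Between the genotypes at 24 h the 4 markers differed by -0.02 to 0.31, and CLV3, EXPA7 and EXPA18 by -0.24, 0.06 and -0.36. None of these differences was called. The part of these changes in the GH3 results was not tested.

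**Figure D1:**
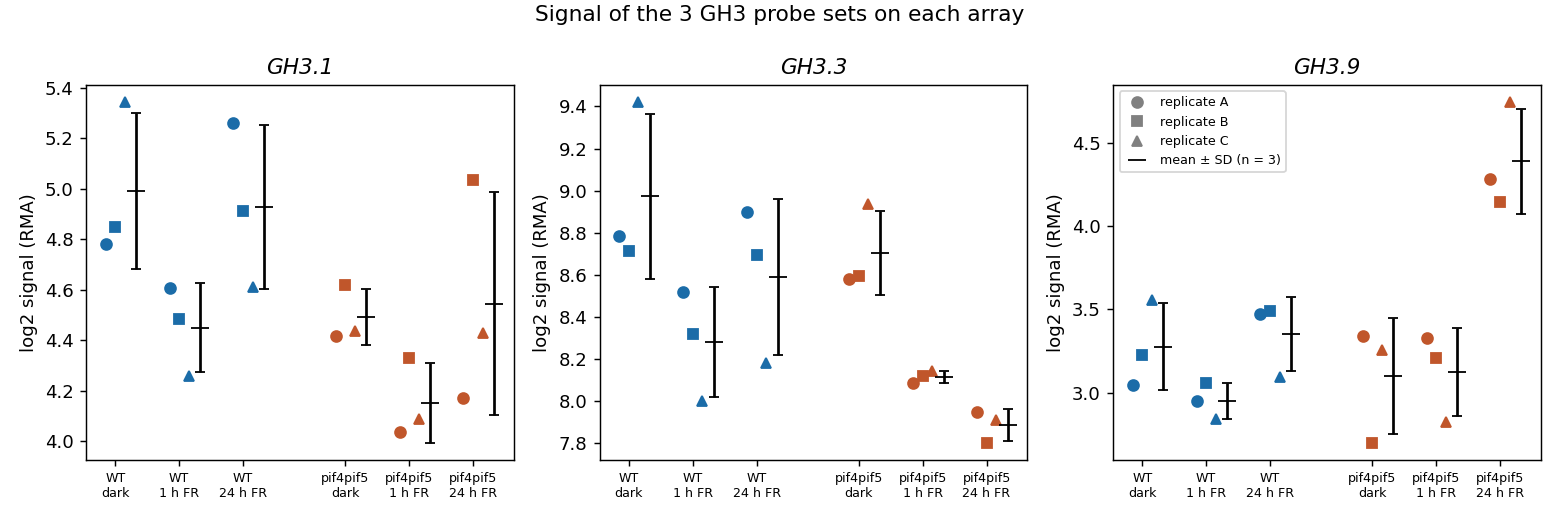
Log2 signal (vertical axis) of GH3.1, GH3.3 and GH3.9 on each of the 18 arrays by genotype and light (horizontal axis; WT is wild type, FR is far-red light), with the mean and SD of 3 arrays beside the points. GH3.9 lies between 4.14 and 4.75 in pif4pif5 at 24 h and at or below 3.56 on all other arrays, GH3.3 is lowest in that same group, and GH3.1 overlaps between most groups.

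GH3.3 gave the following signals. In wild type the 3 dark arrays had 8.78, 8.71 and 9.42, the 1 h arrays 8.52, 8.32 and 7.998, and the 24 h arrays 8.90, 8.70 and 8.18 (replicates A, B and C in this order). In pif4pif5 the dark arrays had 8.58, 8.60 and 8.93, the 1 h arrays 8.08, 8.12 and 8.14, and the 24 h arrays 7.95, 7.80 and 7.91. In both genotypes the 1 h arrays lay below the dark arrays without overlap. The 24 h arrays also lay below the dark arrays in the mutant, whereas in wild type they overlapped.

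In wild type, GH3.3 differed by -0.69 (SE 0.20, adjusted p = 0.171, limma) after 1 h, and in pif4pif5 by -0.59 (SE 0.20, adjusted p = 0.439, limma), and neither value passed the test. The wild-type value was -0.47 without dark replicate C, and it was called without dark replicate A (-0.79, adjusted p = 0.0412, limma), in a fit that called 7.41% of all probe sets. As reported, over all probe sets 0.787% were called in wild type at 1 h and 0.699% in the mutant. Groups did not overlap for 11.7% and 17.6% of all probe sets in these comparisons, and for 2 of the 3 GH3 genes, GH3.1 and GH3.3, in each. The median change of all probe sets against darkness was -0.12 for both light periods in wild type, and -0.07 (1 h) and -0.04 (24 h) in the mutant. Quantile normalization moved the wild-type median to -0.01 at 1 h, and setting all arrays to one median moved that of the mutant at 24 h to 0.11.

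The fall of GH3.3 in the mutant at 24 h took it to 7.89 ± 0.08 (SD, n = 3) from 8.70 ± 0.20 in darkness. All 3 arrays at 24 h were below all 3 in darkness. Groups did not overlap, in either direction, for 31.8% of all probe sets here and for 2 of the 3 GH3 genes, and 7.21% of all probe sets were called lower. The call was lost without mutant dark replicate C (-0.70, adjusted p = 0.0544, limma). From 1 h to 24 h the mutant differed by -0.23 without overlap, as 34.3% of all probe sets did (SE 0.20, adjusted p = 0.537, limma), and wild type by 0.31 (SE 0.20, adjusted p = 0.476, limma). The wild-type value for 24 h against darkness, -0.38 as given above, was -0.16 when dark replicate C was left out and -0.18 when replicate C at 24 h was. At 24 h GH3.3 was at -0.70 in pif4pif5 relative to wild type (SE 0.20, 95% interval -1.13 to -0.28, adjusted p = 0.193, limma). The groups did not overlap, which held for 13.2% of all probe sets, but the difference was not called. Without wild-type 24 h replicate C it was -0.91 and called (adjusted p = 0.0431, limma), in a fit that called 0.783% of all probe sets. The interaction of genotype with 24 h of far-red light, which tests the difference of the 2 responses itself, was -0.44 (SE 0.28, adjusted p = 0.871, limma).

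The order of the GH3.3 levels ran from wild type in darkness (8.97) through pif4pif5 in darkness (8.70), wild type at 24 h (8.59), wild type at 1 h (8.28) and pif4pif5 at 1 h (8.11) to pif4pif5 at 24 h (7.89). No pair of neighbours in that order was called (adjusted p from 0.476 to 1, limma). Of all 15 pairs of groups 3 were called, and they joined wild-type or mutant darkness at the high end with the mutant under far-red light at the low end. The widest gap was 1.09, between wild type in darkness and pif4pif5 at 24 h (adjusted p = 0.000778, limma), in a pair where 17.1% of all probe sets were called. The third pair was pif4pif5 at 1 h against wild type in darkness (-0.86, adjusted p = 0.0265, limma).

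GH3.9 was dim on all arrays by comparison with the bacterial controls. In wild type it gave 3.04, 3.23 and 3.56 in darkness, 2.95, 3.06 and 2.84 at 1 h, and 3.47, 3.49 and 3.09 at 24 h. In pif4pif5 it gave 3.34, 2.70 and 3.26 in darkness, 3.33, 3.21 and 2.83 at 1 h, and 4.28, 4.14 and 4.75 at 24 h. All 3 mutant arrays at 24 h were higher than all 15 other arrays. No detection calls accompanied the values used here.

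The bacterial controls, which match no plant gene, served as a scale for the dim range. GH3.9 was below their mean on all 6 wild-type arrays from darkness and 1 h, and between -0.11 and 0.28 from it on the 3 wild-type arrays at 24 h. In the mutant at 24 h it stood 0.96 to 1.49 above their mean on the same array. It stayed below the highest of the 27 controls on all 18 arrays. The control means of these 3 arrays lay from 3.18 to 3.26, inside the range of the other arrays. Where a group lies at background, a fold change on this scale is of uncertain size. A probe set counted as dim when its mean over the 18 arrays was under 4.67, and GH3.1 (4.59) and GH3.9 (3.37) were among 8630 such probe sets.

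**Figure D2:**
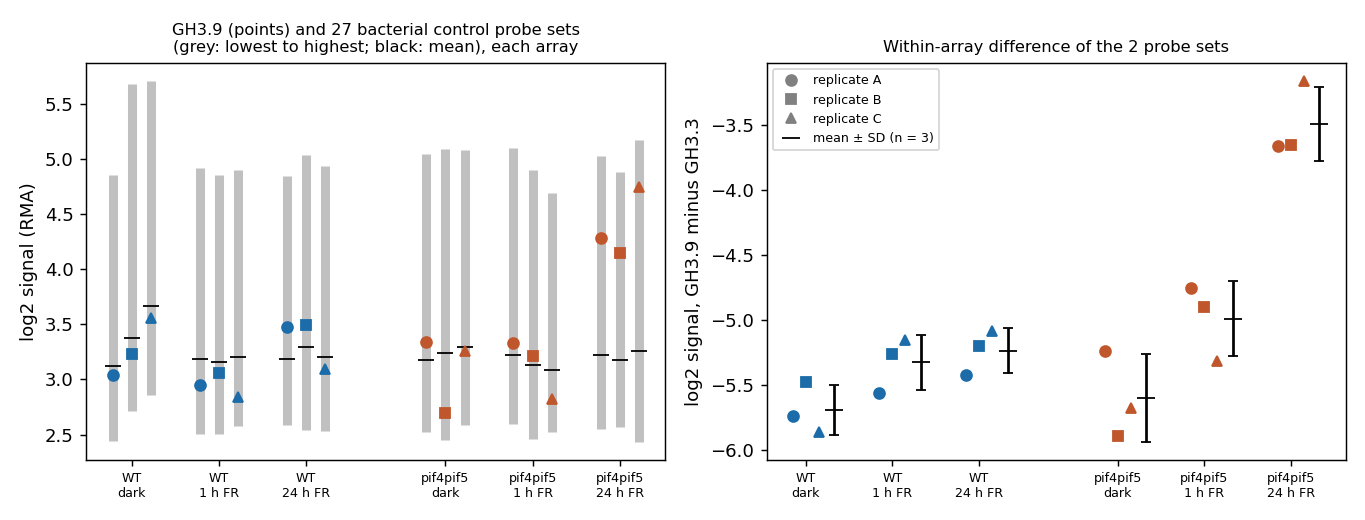
Left, log2 signal of GH3.9 (points) on each array beside the range (grey bars) and mean (black dashes) of 27 bacterial control probe sets. Right, log2 signal of GH3.9 minus that of GH3.3 on the same array, with mean and SD of 3 arrays. Points of pif4pif5 at 24 h lie above the control mean but inside the control range, and their within-array difference of -3.66 to -3.16 is above that of all other arrays.

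GH3.9 in pif4pif5 rose from 3.1 ± 0.35 in darkness to 4.39 ± 0.32 at 24 h (SD, n = 3), and from 3.12 ± 0.26 at 1 h by 1.27 (SE 0.20, 2.41-fold, adjusted p = 0.000378, limma). Of the 3 GH3 genes 2 were called for 24 h against darkness in the mutant, where 11.5% of all probe sets were called, and 1 for 24 h against 1 h, where 11.4% were. Of all probe sets 4.24% and 4.52% were called higher in these comparisons. Among the dim probe sets 1.43% rose in the mutant at 24 h against darkness and 1.76% at 24 h against 1 h. In wild type 11.3% of all probe sets were called for 24 h against darkness and 7.21% for 24 h against 1 h, but 0 of the GH3 genes. Limma gave GH3.1 for 24 h against 1 h an unadjusted p of 0.0358, and gave none of the 3 an unadjusted p under 0.05 for 24 h against darkness. From 1 h to 24 h in wild type GH3.9 differed by 0.40 (SE 0.20, adjusted p = 0.312, limma), and 2 of the 3 genes did not overlap, against 30.3% of all probe sets. GH3.9 at 1 h differed from darkness by -0.33 (SE 0.20) in wild type and by 0.02 (SE 0.20) in the mutant, neither called.

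Between the genotypes at 24 h GH3.9 differed by 1.04 (SE 0.20, 95% interval 0.61 to 1.47), from 3.35 ± 0.22 in wild type to 4.39 ± 0.32 in the mutant (SD, n = 3). The call is one of 83 among all probe sets (0.365%), of which 18 (0.0791%) were higher in the mutant. Among the 8630 dim probe sets 4 were called (0.0463%), GH3.9 with them, and all 4 were higher in the mutant. The size stayed between 0.86 and 1.16 whichever array of the 2 groups was left out. The call was lost without any 1 of the 3 wild-type 24 h arrays or mutant 24 h replicate A or C (adjusted p from 0.0678 to 0.133, limma), and in a fit on the 2 compared groups only (adjusted p = 0.189, limma). The interaction of genotype with 24 h of far-red light was 1.22 (SE 0.29, 95% interval 0.61 to 1.82). Its unadjusted p was 5e-04 and its adjusted p 0.812 in limma, so it was not called, in a comparison where 3 probe sets were (0.0132%). Without wild-type dark replicate A it was 1.33 with an adjusted p of 0.0582 in limma, and 118 probe sets (0.519%) were called.

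In the order of its levels GH3.9 had pif4pif5 at 24 h alone at the top (4.39). The other 5 groups followed between 3.35 and 2.95, and no neighbours among them were called (adjusted p from 0.697 to 1, limma). All 5 called pairs among the 15 were those of the mutant at 24 h with each other group. Against wild type at 1 h the gap was 1.44 (adjusted p = 7.01e-05, limma), where 12.3% of all probe sets were called, and against wild type in darkness 1.11 (adjusted p = 0.000706, limma).

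The difference of 2 signals on one array is free of any shift that moves all signals of that array alike. GH3.9 minus GH3.3 was -5.24, -5.90 and -5.68 in the dark mutant and -3.66, -3.66 and -3.16 in the mutant at 24 h. That is a relative change of 2.11, and the groups did not overlap. In wild type the same quantity was -5.74, -5.48 and -5.86 in darkness and -5.43, -5.20 and -5.08 at 24 h, a relative change of 0.46, again without overlap. GH3.1 minus GH3.3 changed by 0.87 in the mutant and 0.32 in wild type over this interval, both without overlap. How often differences of other probe-set pairs lack overlap was not computed. Of single probe sets 31.8% lacked it in the mutant over this interval. No such share is given for wild type, so the lack of overlap there has no background beside it. The within-array differences combine signals already given, and GH3.9 lay near the control mean in wild type, so they are descriptions and no separate support for the calls. An exact permutation test of 3 arrays against 3 has 0.1 as its smallest two-sided p.

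GH3.1 was also among the dim probe sets. Its SDs within groups ran from 0.11 to 0.44, beside 0.03 to 0.39 for GH3.3 and 0.11 to 0.35 for GH3.9. In wild type it gave 4.78, 4.85 and 5.34 in darkness, 4.61, 4.48 and 4.26 at 1 h, and 5.26, 4.91 and 4.61 at 24 h. In pif4pif5 it gave 4.42, 4.62 and 4.44 in darkness, 4.04, 4.33 and 4.09 at 1 h, and 4.17, 5.03 and 4.43 at 24 h. It was above the mean of the bacterial controls on all 18 arrays and above the highest control on 2 of them. In both genotypes the 1 h arrays were lower than the dark arrays without overlap.

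None of the 12 planned comparisons called GH3.1. Its change after 1 h was -0.54 (SE 0.21, adjusted p = 0.351, limma) in wild type and -0.34 (SE 0.21, adjusted p = 0.953, limma) in the mutant. After 24 h the difference from darkness was -0.06 (SE 0.21) in wild type, with the opposite sign when arrays were quantile normalized (0.0498) or set to one median (0.0388), and 0.05 (SE 0.21) in the mutant. From 1 h to 24 h it differed by 0.48 (95% interval 0.04 to 0.92, adjusted p = 0.224, limma) in wild type and by 0.39 (-0.05 to 0.84, adjusted p = 0.273, limma) in the mutant. The wild-type value was 0.31 without 24 h replicate A, and the mutant value was 0.15 without 24 h replicate B and 0.11 with array weights. Its highest group was wild type in darkness (4.99 ± 0.31, SD, n = 3) and its lowest pif4pif5 at 1 h (4.15 ± 0.16), and no neighbours in the order were called. Of all 15 pairs of groups 2 were called, both across genotype and light. They were pif4pif5 at 1 h against wild type in darkness (-0.84, adjusted p = 0.0418, limma), where 2.22% of probe sets were called, and against wild type at 24 h (-0.78, adjusted p = 0.0256, limma), where 8.74% were.

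**Figure D3:**
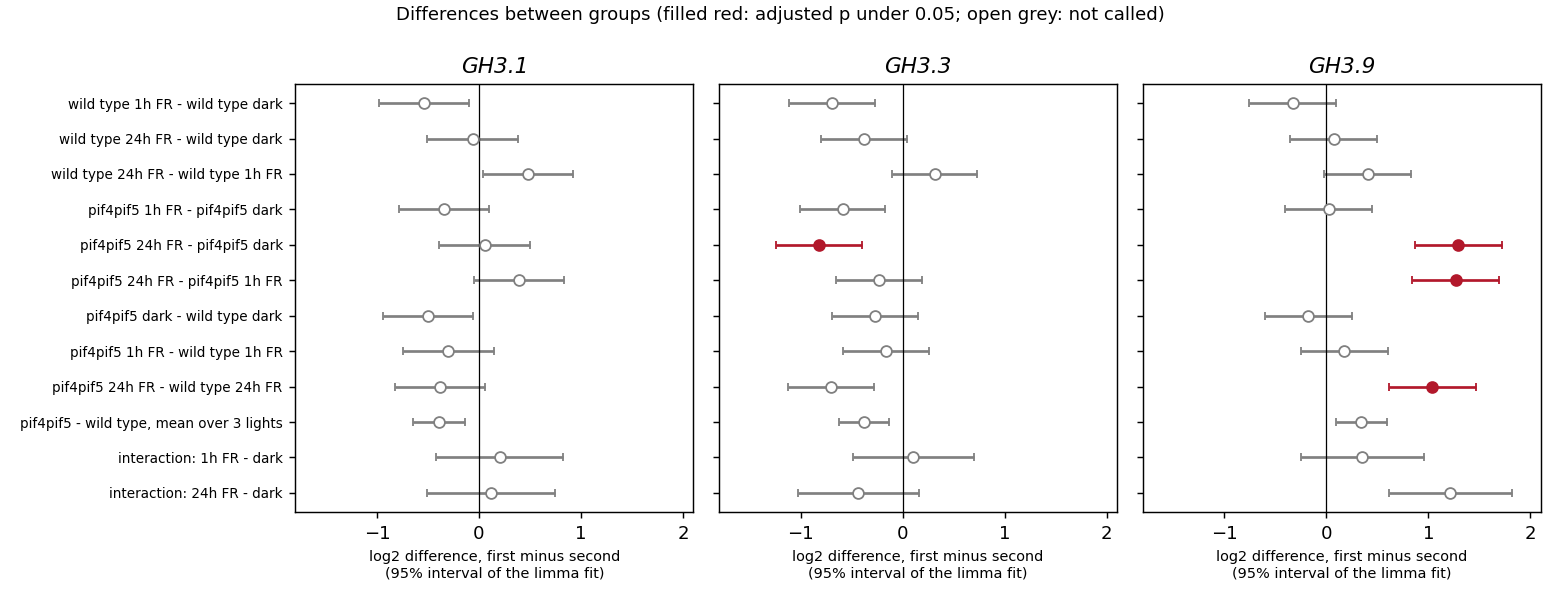
Log2 differences of the 3 GH3 genes (horizontal axis, first-named group minus second, with 95% intervals of the limma fit) in 12 comparisons (vertical axis). Filled red points were called at an adjusted p under 0.05: GH3.3 at -0.82 and GH3.9 at 1.29 for the mutant at 24 h against darkness, and GH3.9 at 1.27 and 1.04 for the mutant at 24 h against 1 h and against wild type at 24 h. All other points were not called.

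Over all 3 light conditions GH3.1 and GH3.3 were lower in pif4pif5 and GH3.9 was higher, with no call over all probe sets. The mean genotype difference was -0.39 for GH3.1 (SE 0.12, adjusted p = 0.159, limma), -0.38 for GH3.3 (SE 0.12, adjusted p = 0.151, limma) and 0.35 for GH3.9 (SE 0.12, adjusted p = 0.221, limma). In this comparison 1.24% of all probe sets were called. An exact two-sided permutation of genotype within each light condition gave p = 0.00775 for GH3.1, 0.0105 for GH3.3 and 0.072 for GH3.9, unadjusted, where 2.5e-04 is the smallest value possible. By light condition, GH3.1 differed by -0.50 in darkness, -0.30 at 1 h and -0.38 at 24 h (SE 0.21 each), and GH3.3 by -0.27, -0.16 and -0.70 (SE 0.20 each). GH3.9 differed by -0.18, 0.17 and 1.04 (SE 0.20 each), so the sign of its difference was not the same in the 3 conditions. Several of these uncalled values rested on 1 array. Without wild-type dark replicate C the dark differences were -0.32 for GH3.1, -0.04 for GH3.3 and -0.04 for GH3.9. Without wild-type 1 h replicate A that of GH3.3 at 1 h was -0.04, and without replicate C -0.30. That of GH3.1 at 24 h was -0.20 without mutant replicate A, -0.22 without wild-type replicate A and -0.63 without mutant replicate B. In darkness and at 1 h 0 of the 3 genes were called in limma. The background was 0.0264% in each of these (6 probe sets), but 3.09% (702) in darkness without wild-type dark replicate A and 1.87% (425) at 1 h with array weights, and GH3.1 in darkness had the one unadjusted p under 0.05 (0.0289). GH3.1 was also the one gene without overlap in darkness, where 6.91% of all probe sets had none. The interaction with 1 h of far-red light was 0.20 (SE 0.30) for GH3.1, 0.11 (SE 0.28) for GH3.3 and 0.35 (SE 0.29) for GH3.9, with 0 of 22746 probe sets called and none of the 3 at an unadjusted p under 0.05.

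**Figure D4:**
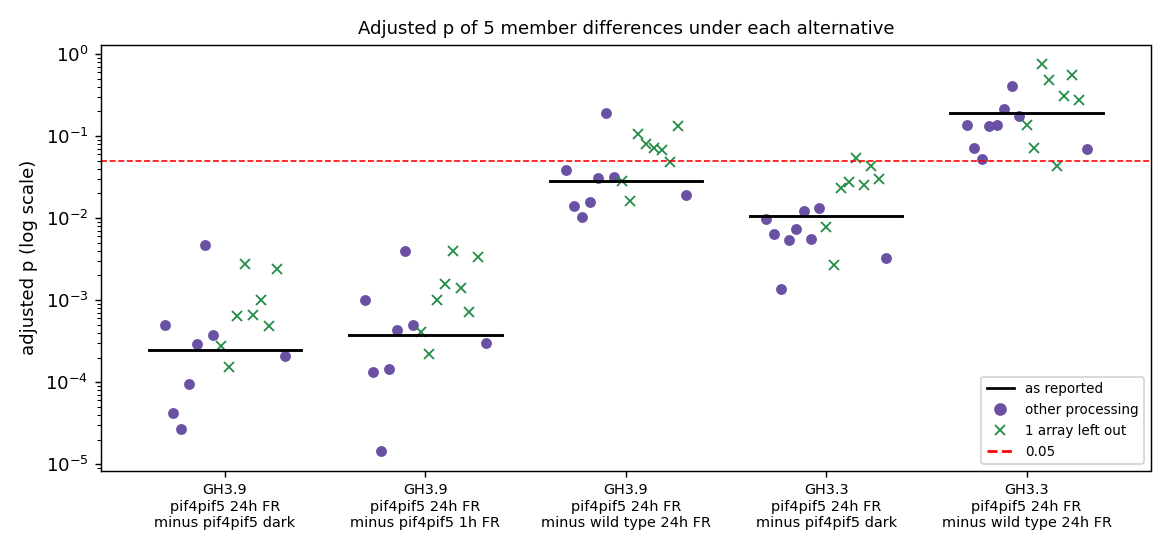
Adjusted p (vertical log axis) of 5 differences of GH3.9 and GH3.3 (horizontal axis) as reported (black line), under other processing (circles) and with 1 array left out (crosses), with 0.05 as a dashed line. The rises of GH3.9 within the mutant stay at or below 0.00468, while its difference from wild type at 24 h crosses 0.05 under several settings.

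Other family members with a single-gene probe set were WES1 (GH3.5), which conjugates auxin and salicylic acid, and GH3.17, which conjugates auxin to glutamate. Neither was called in any of the 12 comparisons. The exact genotype permutation within lights gave p = 0.552 for WES1 and 0.0155 for GH3.17 (mean difference -0.23), unadjusted over the 5 GH3 genes so tested. WES1 group means ran from 9.65 (pif4pif5 at 24 h) to 10.05 (wild type in darkness), with SDs from 0.10 to 0.55. GH3.17 group means ran from 8.34 (pif4pif5 in darkness) to 8.92 (wild type at 24 h), with SDs from 0.01 to 0.31. In the mutant at 24 h against darkness WES1 stood at -0.26 (SE 0.22) and GH3.17 at 0.33 (SE 0.16), beside -0.82 for GH3.3 and 1.29 for GH3.9. The remaining GH3 genes were not analysed here, and signal from close relatives such as GH3.2 and GH3.4 in the GH3.3 probe set was not tested.

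Of the auxin genes listed besides the GH3 family, 14 had a single-gene probe set: 2 for conjugation of auxin to glucose, 4 for synthesis, 7 Aux/IAA repressors and 1 for transport. Some of the 14 lay near or below the mean of the bacterial controls, where a lack of a call is uninformative. In pif4pif5 at 24 h against darkness 3 fell and 0 rose, where 7.21% of all probe sets fell and 4.24% rose, with a median of 0.11 against -0.04 for all probe sets. IAA20, an Aux/IAA repressor, fell by 1.51 (SE 0.17, adjusted p = 7.02e-06, limma), and WAG2, a kinase that acts on auxin efflux carriers, by 2.68 (SE 0.29, adjusted p = 4.44e-06, limma). IAA29, another Aux/IAA repressor, fell by 0.70 (adjusted p = 0.0349, limma). In wild type over the same interval IAA20 (-0.78) and WAG2 (-2.22) fell and UGT74D1, an auxin glucosyltransferase, rose by 0.73 (adjusted p = 0.00743, limma), so 3 of the 14 were called where 11.3% of all probe sets were.

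Between the genotypes at 24 h, where 0.365% of all probe sets were called, IAA20 was the one called gene of these 14, at -0.93 in the mutant relative to wild type (SE 0.17, adjusted p = 0.0166, limma). At 1 h against darkness, where 0.787% of all probe sets were called in wild type and 0.699% in the mutant, IAA29 was the one called gene, at -2.48 in wild type and -2.39 in the mutant. From 1 h to 24 h IAA29 rose by 2.14 in wild type and 1.69 in the mutant, and WAG2 changed by -1.87 and -2.40. In that interval IAA18 (0.54) rose and IAA20 (-1.04) fell in the mutant. That made 2 called genes of the 14 in wild type and 4 in the mutant, where 7.21% and 11.4% of all probe sets were called. None of the 4 auxin synthesis genes YUC2, YUC4, YUC6 and YUC11, which encode flavin monooxygenases, was called in any comparison. YUC4 (group means 2.85 to 3.19) and YUC11 (2.95 to 3.15) lay near the mean of the bacterial controls, so their lack of a call is uninformative. YUC2 came nearest in the mutant at 24 h against darkness, at 0.49 (adjusted p = 0.0711, limma).

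The genes whose 6 group means ran most like those of a GH3 gene were sought among single-gene probe sets whose means spanned at least 1. For GH3.3 they were AT4G16670 (r = 0.99 over 6 group means, 0.90 over 18 arrays), AT4G35720 (0.99 and 0.84) and the bZIP factor gene bZIP52 (0.98 and 0.86). For GH3.9 they were the sugar transporter gene SWEET4 (0.97 and 0.57), AT1G04800 (0.97 and 0.68) and AT1G22690 (0.96 and 0.82). SWEET4 had a group mean of 4.30 in the mutant at 24 h and of 3.14 to 3.52 in the others. In the mutant at 24 h against darkness SWEET4 was not called (adjusted p = 0.103, limma), while AT1G04800 and AT1G22690 were (adjusted p = 0.0217 and 0.000168, limma). Between the genotypes at 24 h SWEET4, AT1G04800 and AT1G22690 were all uncalled (adjusted p from 0.196 to 0.584, limma). For GH3.1 the most alike genes were AT3G49960 (0.95 and 0.47) and the plastid photosystem I genes psaI (0.95 and 0.57) and psaC (0.93 and 0.50), so the likeness was weaker over single arrays. These correlations were picked as the highest of 940 or 941 candidates and are descriptions. Among the GH3 genes r over the 6 group means was 0.67 for GH3.1 with GH3.3, 0.13 for GH3.1 with GH3.9 and -0.51 for GH3.3 with GH3.9.

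The nearest measured neighbours of GH3.9 on the chromosome, by gene order in TAIR10.1, were AT2G47720 and AT2G47780. AT2G47720, the adjacent gene, had group means of 3.1 to 3.4, near the control mean, so its lack of a call is uninformative, and it was at -0.07 in the mutant at 24 h against darkness (adjusted p = 0.843, limma). AT2G47780, which is 3 genes away on the other side, fell by 2.19 (adjusted p = 7.23e-07, limma) and was at -1.04 in the mutant relative to wild type at 24 h (adjusted p = 0.0199, limma), with the opposite sign to GH3.9. The neighbours of GH3.3, AT2G23160 and AT2G23200, were at 0.07 and -0.35 in the mutant at 24 h against darkness, and neither was called. AT2G23160 had group means of 3.06 to 3.14, near the control mean, so its lack of a call is uninformative too.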

How the data were processed

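The deposited values are log2 signals from robust multi-array averaging (RMA) by the authors, per the submitters' processing notes, without a stated version or background model. Per the labels, biotin-labelled targets were made from 100 ng of total RNA. Array medians differed, and the values were used as deposited. Of 22810 probe sets 64 were Affymetrix controls. The probe table of the platform named 1 gene for 13513 of the rest, and 13436 of these matched a locus of TAIR10.1.

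Limma 3.58.1 in R 4.3.3 fitted 6 group means to the 18 arrays for 22746 probe sets (12 residual and 5.91 prior degrees of freedom). The procedure was tested on simulated data. The genotype was also permuted exactly within each light. The number of arrays limits precision.

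Members, gene lists and comparisons were chosen with earlier results of these data known. By rule, at most 3 called genes per list, or otherwise the one of lowest p, and the 3 probe sets most like each GH3 gene are named. Of 17 root and 13 shoot markers, 2 and 5 were measured. A listed symbol, GR1, named glutathione reductase and was dropped. Alternatives were other normalizations, array weights, a moderated trend, filters, smaller fits, a replicate block and leaving out arrays. Deviations of same-lettered arrays had r over 0.1 in 24 of 45 pairs (5 of 15 for A, 6 for B and 13 for C). The r ran from -0.04 to 0.34 for A, from -0.22 to 0.34 for B and from 0.09 to 0.45 for C. No such count is given for pairs of different letters, so these counts have no baseline. The labels do not say that letters mark a shared batch, so the main fit held no block for them. Some effect shared by letter, above all for C, may therefore remain in its spread.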

Additional observations from a re-analysis of the deposited data

How the results depend on the processing

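Of 621 recomputed differences of the 3 genes, 583 kept their direction and their side of 0.05, 26 changed sign without being called in either fit, 7 lost and 5 gained a call. Both rises of GH3.9 in the mutant (24 h against darkness and against 1 h) were called in all 16 alternatives each. The number of GH3 genes called in the mutant at 24 h against darkness was 2, where 11.5% of all probe sets were called. It was 1 with dim probe sets left out, where 20.1% of those kept were called and GH3.1 and GH3.9 were not tested. It ranged from 1 to 2 without 1 array. For 24 h against 1 h in the mutant it was 1, and 0 with dim probe sets left out. Between the genotypes at 24 h it was 1, and 0 with dim probe sets left out or in a fit on the compared groups only, and 0 to 1 without 1 array. For the mean over lights it was 0, where 1.24% of all probe sets were called. It was 1 with array weights (GH3.1, background 2.5%) and 1 after a shift to one median (GH3.3, adjusted p = 0.0471, limma, background 1.45%). Without 1 array it was 0 to 1, being 1 without mutant 24 h replicate B (background 0.862%). At 1 h in wild type it was 0, and 0 to 1 without 1 array, being 1 without dark replicate A (background 7.41%). Called pairs of groups for GH3.1 fell from 2 to 1 under quantile normalization. The exact genotype test of GH3.9 passed 0.05 under quantile normalization (0.39, p = 0.0357, chosen after seeing the data). Causes were not tested beyond the dim filter, which removes both genes.

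Uncalled differences that changed sign were as follows. With array weights they were GH3.9 for the mutant at 1 h (-0.0336) and for the genotypes in darkness (0.00395), GH3.1 for 24 h in the mutant (-0.15) and wild type (0.0465), GH3.3 in the 1 h interaction (-0.0293) and GH3.1 in the 24 h interaction (-0.20). GH3.1 for 24 h in wild type was 0.0498 with quantile normalization and 0.0388 with all arrays set to one median. With wild-type dark replicates B and C both left out (added after seeing the data, leaving 1 array), GH3.1 was at 0.15 for 24 h in wild type, -0.00867 and -0.0929 in the 1 h and 24 h interactions, GH3.3 at -0.0827 in the 1 h interaction and GH3.9 at 0.0555 for the genotypes in darkness. Without 1 array the ranges for GH3.9 were -0.18 to 0.17 at 1 h in the mutant, -0.0410 to 0.22 at 24 h in wild type and -0.30 to 0.0227 for the genotypes in darkness. For GH3.1 they were -0.23 to 0.11 at 24 h in wild type, -0.19 to 0.24 at 24 h in the mutant and -0.13 to 0.30 in the 24 h interaction, and for GH3.3 -0.12 to 0.24 in the 1 h interaction.

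The replicate block changed no call of the 3 genes (GH3.9 between the genotypes at 24 h, adjusted p = 0.0316, limma). With it 118 of all probe sets were called for the genotypes at 24 h, against 83 as reported. The labels do not say whether same-lettered arrays belong together, so whether the design is paired is unknown. Across all alternatives the calls over all probe sets moved more, from 83 to between 13 and 225 for the genotypes at 24 h. For the mutant at 24 h against darkness they moved from 2605 to between 1181 and 4607. At 1 h in wild type they went from 179 to between 39 and 1685, the highest without wild-type dark replicate A.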
